A study of Mus musculus with 5 samples.

Results

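The Hoxa cluster is the group of Hox genes that runs along mouse chromosome 6, and its chromatin and factor binding were examined in transformed bone marrow progenitors. All regions touching chr6:52110000-52270000 (mm9), which spans Hoxa2 to Hoxa13 and the stretch towards Evx1, were taken from 4 peak lists, with 300 kb on either side for contrast. They numbered 32 of the 166982 regions in the lists: 16 of 33769 H3K27me3 regions and 16 of 100189 H3K4me1 regions. None of the 6578 peaks of Hoxa9 or the 26446 of C/EBPα lay there. Position alone chose these regions, and no measured value entered the rule. The members and lists were themselves chosen with earlier results of these data known.

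The cells were lineage-depleted bone marrow progenitors of C57B6 mice, transduced with the retroviruses MIGR1-HA-Hoxa9 and MIGR1-Flag-Meis1 and kept in IL3. Every library came from cells that carried both retroviruses, so there was no untransformed group, and the number of animals and of independent transductions is not given in the sources used here. Chromatin immunoprecipitation with sequencing was done with antibodies against HA, C/EBPα, H3K4me1 and H3K27me3, 1 library each. No value below has a replicate error, and no difference was tested. RNA was not among the data analysed here, so the expression of the Hoxa genes is not given. The tags, fold enrichments over the caller's background and p scores of single regions are the authors' values. The HA antibody recognises the retroviral Hoxa9 and not the protein made from the cell's own gene. Reads from the exons of endogenous Hoxa9 and from the retroviral copy cannot be told apart in any of the 4 lists.

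Hox genes encode homeodomain transcription factors that give cells their position along the body axis, and each cluster is switched on in the order in which its genes lie. Hoxa2 patterns the hindbrain and the second pharyngeal arch, Hoxa3 is needed for the thymus and parathyroid, and Hoxa5 for the lung and neck. Hoxa4, Hoxa6 and Hoxa7 take part in patterning the axial skeleton. Hoxa9 and Hoxa10 act in blood stem and progenitor cells and are switched off as these mature, while Hoxa11 and Hoxa13 act in the uterus, the limb and the genital tract. Polycomb repressive complex 2 places H3K27me3 over silent Hox genes, often as a broad block, whereas H3K4me1 marks enhancers and the edges of promoters.

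The annotation at hand (GRCm38.p6) is of another build than the lists (mm9), so it gave gene order only. For the members and Evx1 it runs Hoxa2, Hoxa3, Hoxa4, Hoxa5, Hoxa6, Hoxa7, Hoxa9, Hoxa10, Hoxa11, Hoxa13 and Evx1 towards higher coordinates. Positions below are therefore given as nearer the Hoxa2 side or the Evx1 side of the window, and no region was assigned to a gene, an exon, an intron or a UTR.

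Promoters of 9 of the 10 members were found in RefSeq's table for GRCm38.p6, Hoxa10 with 2 starts, and each window held 250 bases before and 50 after the start. Hoxa4 had no entry. All 9 members were read from the minus strand, with their starts on the Evx1 side. CG dinucleotides are shown because Polycomb-marked promoters are often rich in them. Below, capitals mark each CG in the promoter of Hoxa9 (chr6:52227321-52227620, GRCm38.p6, minus strand), the gene of the mapped factor and the member with the fewest, and in that of Hoxa13 (chr6:52260831-52261130, GRCm38.p6, minus strand), the member with the most:
Hoxa9: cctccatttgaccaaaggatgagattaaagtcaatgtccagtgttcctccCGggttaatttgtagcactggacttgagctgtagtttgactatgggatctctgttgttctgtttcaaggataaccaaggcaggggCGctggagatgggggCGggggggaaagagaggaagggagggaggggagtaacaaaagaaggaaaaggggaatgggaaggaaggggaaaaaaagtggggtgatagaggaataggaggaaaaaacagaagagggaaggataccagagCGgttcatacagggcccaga
Hoxa13: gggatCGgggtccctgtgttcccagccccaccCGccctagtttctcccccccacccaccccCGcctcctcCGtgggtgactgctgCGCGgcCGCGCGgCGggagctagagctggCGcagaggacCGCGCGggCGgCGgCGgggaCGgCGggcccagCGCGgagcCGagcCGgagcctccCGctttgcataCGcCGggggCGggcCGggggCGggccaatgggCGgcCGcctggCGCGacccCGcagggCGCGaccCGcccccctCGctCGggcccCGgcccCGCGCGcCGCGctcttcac

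These promoters differed widely in composition. The Hoxa9 promoter held 4 CG dinucleotides, and 31.4% of the 32851 promoters in the table held fewer. Hoxa13 held 45, with 98.1% of all promoters below it. Hoxa5 held 29, Hoxa6 26 and Hoxa3 20. The 2 starts of Hoxa10 held 21 and 12, Hoxa11 held 15, and Hoxa2 and Hoxa7 held 9 each. Of the 10 member promoters, 9 lay above the median of 7 over all promoters, and their own median was 17.5. Their GC content ran from 45.7% to 81.0%, against a median of 52.7% over all promoters.

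**Figure D1:**
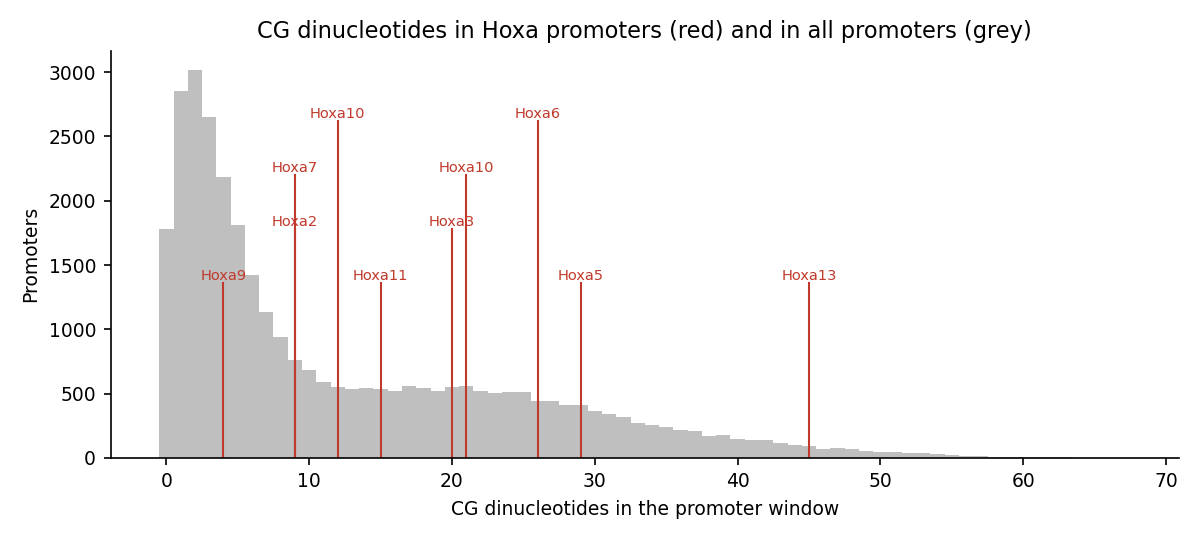
Number of CG dinucleotides in the 300-base promoter window (x axis) against the number of promoters with that count (y axis, grey bars, 32851 promoters). Red lines mark the 10 promoters of 9 Hoxa genes, with line height used only to separate names; Hoxa9 lies lowest at 4 and Hoxa13 highest at 45.

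Motifs of the mapped factors were searched on both strands of the same windows. The Hox-Pbx motif TGATTTAT was in 0 of the 10 member promoters and in 0.977% of all promoters. The C/EBP motif TTGCNNAA was in 1 of the 10 and in 10.8% of all. That promoter, of the Hoxa10 start at chr6:52234890-52235189 (GRCm38.p6, minus strand), is shown with the match in capitals:
Hoxa10: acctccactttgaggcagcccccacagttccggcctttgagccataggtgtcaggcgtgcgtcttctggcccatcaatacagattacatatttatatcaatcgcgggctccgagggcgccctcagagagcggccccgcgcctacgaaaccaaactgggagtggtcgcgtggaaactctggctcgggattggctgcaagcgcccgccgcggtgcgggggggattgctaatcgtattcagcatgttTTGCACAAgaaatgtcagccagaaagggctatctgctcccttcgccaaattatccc

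H3K27me3 covered nearly all of the Hoxa window. Its 16 regions spanned 149.545 of 160.001 kb, or 93.5%, against 10.5% of the 600 kb of flanks and 2.51% of the span of the lists. In bins of 10 kb, all 16 bins of the window were at least 60.3% covered and 13 were covered to 90% or more. Of the 60 flanking bins, 37 held none of the mark and 2 reached 90%. When the whole span was divided into 16079 tiles of 160 kb, the highest coverage of a tile was 91.5%, in a tile that touches the Hoxa window, and the next was 76.6%. The median tile had 0% H3K27me3. None of the tiles reached the 93.5% of the window. However, the window was placed on the cluster, whereas the tiles were cut along the span without regard to loci. A block split between tiles has lower coverage in each, so these values do not rank the window.

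**Figure D2:**
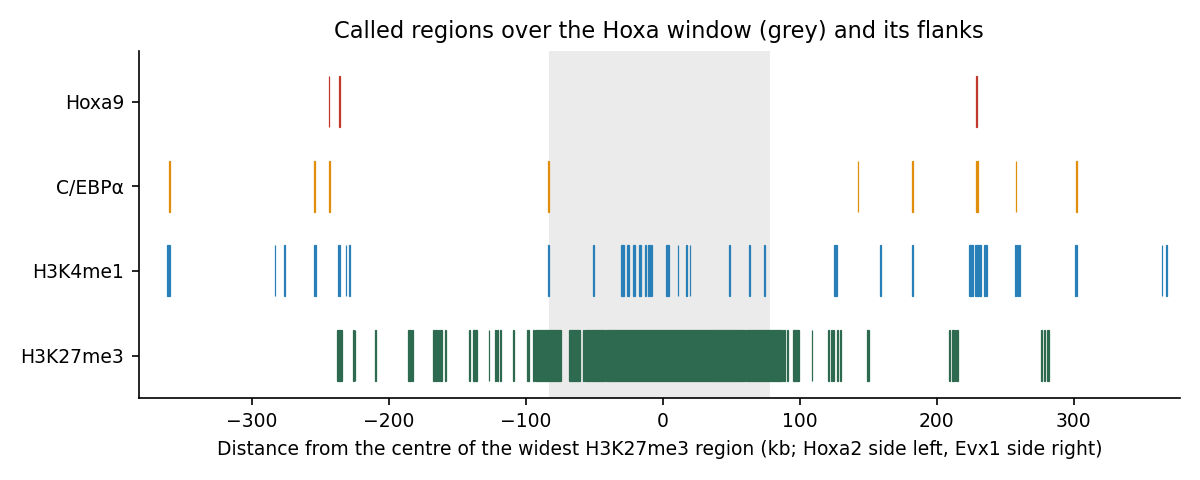
Called regions of the 4 lists along the locus (rows), with distance in kb from the centre of the widest H3K27me3 region on the x axis and the 160 kb Hoxa window in grey. H3K27me3 fills the window, H3K4me1 forms a row of short regions within it, and the 3 Hoxa9 and 9 C/EBPα peaks all lie outside, the nearest C/EBPα peak 0.881 kb beyond the edge on the Hoxa2 side.

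The centre of the window was a single H3K27me3 region, chr6:52152460-52232845. It was 80.386 kb wide, 50.2% of the window, and held 21434 tags, which were 61.9% of the 34645 tags in the window's H3K27me3 regions. Its fold enrichment of 41.98 ranked 13 of 33769, and its width and its tag count each ranked 2. It began 42.46 kb inside the window from the Hoxa2 side and ended 37.155 kb before the Evx1 side. Its summit, the point of highest tag density, lay at 52210096, which was 57.636 kb from its start and 22.749 kb from its end. Its p score (−log10 of the p-value, multiplied by 10) was 921.73 and ranked 4993, far below its ranks by width, tags and enrichment. In that list 2558 regions shared a p score of exactly 3100, 3 of them in the window, so ranks by score hold many ties.

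The remaining H3K27me3 of the window lay in 15 regions of unequal density. On the Hoxa2 side the outermost region, chr6:52098977-52117240, was 18.264 kb wide with 153 tags per kb and a fold enrichment of 23.02. It was followed by chr6:52123814-52129840 with 102 tags per kb and a fold enrichment of 14.9, and by chr6:52136576-52147360 with 112 tags per kb and a fold enrichment of 24.72. On the Evx1 side chr6:52236539-52244507 had 150 tags per kb and a fold enrichment of 23.7. The outermost region there, chr6:52253403-52277141, was 23.739 kb wide with 252 tags per kb and a fold enrichment of 34.53, close to the 267 tags per kb of the central region. The H3K27me3 list as a whole had a median of 58.4 tags per kb.

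Between these lay 10 regions of lower density, all under 100 tags per kb. Before the central region they were chr6:52117314-52118125, chr6:52130053-52131998, chr6:52133975-52135347 and chr6:52135693-52136516, then chr6:52147514-52149081, chr6:52149204-52150529 and chr6:52151121-52152331. After it they were chr6:52232857-52236433, chr6:52244623-52251548 and chr6:52251633-52252608. Their fold enrichments ran from 5.08 at chr6:52149204-52150529 to 8.13 at chr6:52244623-52251548. H3K27me3 was therefore uneven in level, and its densest regions were the central one and the outermost on the Evx1 side.

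**Figure D3:**
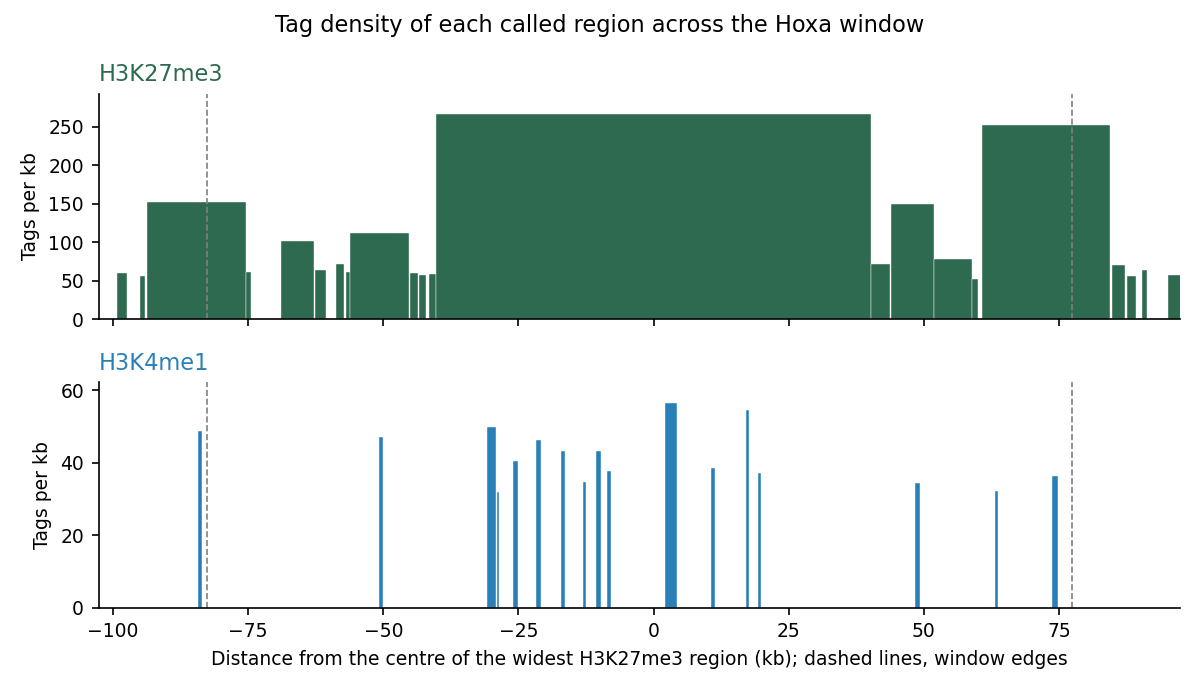
Tags per kb of each H3K27me3 region (upper panel) and H3K4me1 region (lower panel), drawn at its width, with distance in kb from the centre of the widest H3K27me3 region on the x axis and dashed lines at the window edges. Each bar is the mean of its region; the central H3K27me3 region reached 267 tags per kb and the outermost on the Evx1 side 252.

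The gaps between neighbouring H3K27me3 regions were short on most of the window. Of 15 gaps, 13 were under 1 kb, the median was 128 bp, and the gap after the central region was 11 bp. The longest, 5.688 kb at chr6:52118126-52123813, and the next, 1.976 kb at chr6:52131999-52133974, both lay on the Hoxa2 side. Coverage was 78.0% of the 42.46 kb before the central region and 97.0% of the 37.155 kb after it. The mark was thus less complete towards Hoxa2 than towards Evx1.

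The outer edges depended on how far apart regions may lie and still be joined. Joined over gaps of up to 1 kb, 14 regions formed a block of 147.958 kb, chr6:52133975-52281932, the widest of 22670 such blocks, ahead of one of 127.822 kb. The 1 kb limit was added after seeing the data, and without joining the central region ranked 2 by width. With gaps of up to 5 kb the block was chr6:52123814-52291770, of 167.957 kb and 93.8% covered, and ranked 2. It ended 21.77 kb beyond the window on the Evx1 side. With gaps of up to 10 kb it ran from 52051048 to 52301765, over 250.718 kb, and ranked 2, but only 74.5% of that was covered.

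Outside the window the mark thinned into short regions. The window's outermost regions reached 11.023 kb into the Hoxa2-side flank and 7.141 kb into the Evx1-side flank, and without these the flanks were 7.46% covered. The H3K27me3 regions of the flanks were smaller and weaker than those it held. The 16 of the window had median values of 2761.5 bp for width and 7.28 for fold enrichment, and the 41 of the flanks had 849 bp and 5.42. A fold enrichment of 10 or more was reached by 6 regions of the window and by 1 in the flanks. That one, chr6:51954609-51958147, was the widest of the Hoxa2-side flank at 3.539 kb and had a fold enrichment of 15.24. The widest of the Evx1-side flank, chr6:52287782-52290272, was 2.491 kb wide with a fold enrichment of 6.77.

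H3K4me1 was present inside the H3K27me3 block. All 16 H3K4me1 regions of the window lay wholly within an H3K27me3 region, whereas 6.85% of all H3K4me1 regions met one. Since H3K27me3 covered 93.5% of the window, nearly any region there would meet it. In the flanks 2 of 24 H3K4me1 regions met H3K27me3, both on the Hoxa2 side.

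The central H3K27me3 region held 12 of the 16, and they covered 11.131 kb or 13.8% of it. The rest of the window held 4, 1 before it and 3 after it, and these covered 4.13%. H3K4me1 covered 2.57% of the Hoxa2-side flank, 5.71% of the Evx1-side flank and 4.64% of the span of the lists. Within the window H3K4me1 coverage was thus highest in the central region. The stretch between the window's Hoxa2 edge and that region was 1.55% covered, and the stretch on its Evx1 side 7.08%, above both flanks.

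**Figure D4:**
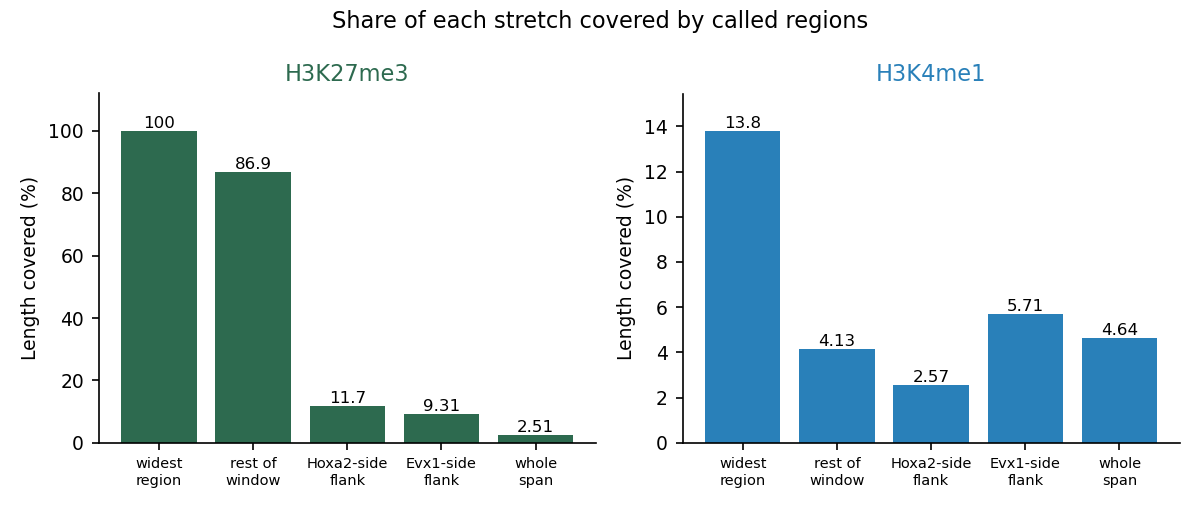
Percentage of length covered by H3K27me3 regions (left) and H3K4me1 regions (right) in the widest H3K27me3 region, the rest of the Hoxa window, each 300 kb flank and the span of the 4 lists. H3K27me3 is 100% in the first by definition and 86.9% in the rest of the window; H3K4me1 is 13.8% in the widest H3K27me3 region and 2.57 to 5.71% in the other bars.

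The 12 H3K4me1 regions of the central block were spaced unevenly. Their summits lay 1436 to 11683 bp apart, with a median of 4009 bp. The first, chr6:52161902-52163581, started 9.442 kb inside the block on the Hoxa2 side, with 84 tags and a fold enrichment of 6.67. The last, chr6:52212043-52212553, with 19 tags and a fold enrichment of 3.92, was followed by 20.292 kb of H3K27me3 without H3K4me1. Outside the block the nearest regions were chr6:52141878-52142535, 9.924 kb away on the Hoxa2 side with 31 tags, and chr6:52240979-52241876, 8.133 kb away on the Evx1 side with 31 tags. The outer 9.442 kb on the Hoxa2 side of the block and the outer 20.292 kb on its Evx1 side therefore held no called H3K4me1.

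The widest and highest scoring H3K4me1 region of the window was chr6:52194793-52196982. It was 2.19 kb wide, with 124 tags, a fold enrichment of 7.26 and a p score of 1044.57, and 84.4% of the list had a lower fold enrichment. The 16 had 14 to 124 tags with a median of 31.5, against 32 over the list, and fold enrichments of 3.33 to 7.26 with a median of 4.255, against 4.84. Only 6 of the 16 exceeded the list's median fold enrichment, and 9 exceeded its median width of 768 bp. The region chr6:52161902-52163581 also stood above most of the list, with a fold enrichment higher than 78.2% of it. Taken as a group, the H3K4me1 regions of the cluster had median tags and fold enrichment at or below those of the list.

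Some H3K27me3 summits fell within H3K4me1. The summit of the central H3K27me3 region lay in the H3K4me1 region chr6:52209804-52210389, which had 32 tags and a fold enrichment of 5.86 and was looked up after its values were seen. The summits of chr6:52236539-52244507 and chr6:52253403-52277141 also lay in H3K4me1 regions. That made 3 of the 6 H3K27me3 regions of the window with a fold enrichment of 10 or more, and 44.4% of 5138 such regions in the whole list had their summit in H3K4me1. The share in the Hoxa window was thus near that of the list. The lists were made from bulk chromatin, so marks on the same nucleosomes and marks in different cells or on different alleles cannot be told apart.

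The central region was set beside the 3 other widest H3K27me3 regions. The widest, chr8:126061025-126151860, was 90.836 kb, but it stood apart with 680 tags per kb, against 267 in the Hoxa region, and with 94.6% of its length under H3K4me1. The regions chr11:96109310-96186459 and chr2:74480198-74555361 were 77.15 and 75.164 kb wide, with 223 and 251 tags per kb and fold enrichments of 33.92 and 38.6. H3K4me1 covered 13.8% of the Hoxa region in 12 regions, 13.5% of the chromosome 2 region in 12 and 3.43% of the chromosome 11 region in 5. The Hoxa region held 0 peaks of either factor, as did the chromosome 8 region, while the chromosome 2 region held 1 C/EBPα peak and the chromosome 11 region 1 Hoxa9 peak.

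Against all 688 H3K27me3 regions of 10 kb or more, the Hoxa region ranked 8 by fold enrichment and 34 by tags per kb. Its H3K4me1 coverage ranked 284, and the median of the 688 was 11.35%. H3K4me1 met 86.2% of these wide regions, and all 4 of them that touch the Hoxa window. For chr6:52098977-52117240 the H3K4me1 region that it met, chr6:52108407-52109146, lay just outside the window. The H3K4me1 inside the Hoxa block was therefore close to the middle of what wide H3K27me3 regions carried. A factor peak was absent from 583 of the 688, or 84.7%. Their median width was 13.9 kb, against 80.386 kb for the Hoxa region, and a narrower region has less room for a peak. The 84.7% is therefore not a share for regions of its width.

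**Figure D5:**
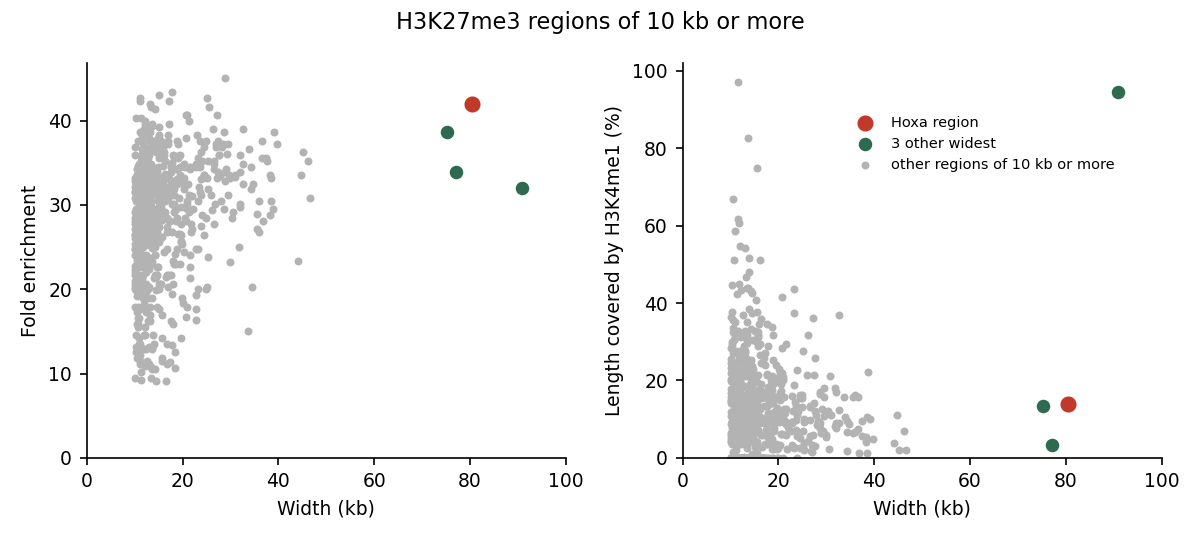
Width in kb (x axis) of the 688 H3K27me3 regions of 10 kb or more against fold enrichment (left) and the percentage of length covered by H3K4me1 (right). The Hoxa region (red) stands at 80.386 kb, a fold enrichment of 41.98 and 13.8%; the 3 other widest regions are in green.

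Neither factor had a peak in the Hoxa window. That alone was common: of the 160 kb tiles, 75.5% held no Hoxa9 summit, 50.4% no C/EBPα summit and 48.3% neither, and the mean was 0.409 Hoxa9 and 1.64 C/EBPα summits per tile. In tiles rich in either mark the shares differed. Of the 2619 tiles with 16 or more H3K4me1 summits, as many as the window held, 26 had no summit of either factor, or 0.993%. These 2619 were taken whatever their H3K27me3, whereas all 16 H3K4me1 regions of the window lay within that mark. The 0.993% is therefore not a share for windows of this kind. Of the 26 tiles at least 50% covered by H3K27me3, 3 had a summit of neither factor, or 11.5%, and 1 of the 26 touches the Hoxa window. Taken by factor, 4 of these 26 had no C/EBPα summit, while 18 had no Hoxa9 summit, a share near that of all tiles. These tile classes were chosen after the window's values were seen and were not tested.

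Factor overlap was also counted region by region. A Hoxa9 or C/EBPα peak met 0 of the 16 in the window and 21.9% of all H3K4me1 regions. Among H3K4me1 regions that met H3K27me3 the share was 9.05%. Most H3K4me1 regions of that kind thus had no factor peak. The count of 0 was not tested against either share and is not read as a result about the window. Sites too weakly bound to be called are absent from the lists, and binding below that level was not detectable here.

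The nearest factor peak was one of C/EBPα just outside the window on the Hoxa2 side. It lay at chr6:52108622-52109118, 0.881 kb from the window and 43.341 kb from the central H3K27me3 region, with 29 tags and a fold enrichment of 8.02. It overlapped the H3K4me1 region chr6:52108407-52109146, which had 36 tags and a fold enrichment of 5.1. It also lay within the outermost H3K27me3 region of that side, chr6:52098977-52117240. Of all C/EBPα peaks, 2.09% met an H3K27me3 region. Widening the window by 5 kb, an alternative chosen after seeing the data, brought this peak in and raised the C/EBPα count to 1.

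Beyond it no C/EBPα peak was found for 225.802 kb, up to chr6:52334921-52335318 on the Evx1 side, a weak peak with 16 tags and a fold enrichment of 4.42. Of 26426 gaps between neighbouring C/EBPα peaks 8.4% were at least as long, and the median gap was 24.0 kb. Hoxa9 had no peak for 464.611 kb, from chr6:51956053-51956688 to chr6:52421300-52422056. Of its 6558 gaps 20.7% were at least as long, with a median of 109 kb. Both factors thus left a long stretch around the cluster empty, of a length that recurs elsewhere in their lists.

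The 3 Hoxa9 peaks of the flanks lay 151 to 161 kb from the window. The strongest, chr6:52421300-52422056 on the Evx1 side, had 43 tags and a fold enrichment of 8.58. It overlapped the C/EBPα peak chr6:52421088-52422371, with 186 tags and a fold enrichment of 44.34, higher than 98.7% of the C/EBPα list, and the summits were 86 bp apart. Both lay in the widest H3K4me1 region of the flanks, chr6:52420232-52425006, which was 4.775 kb wide with 253 tags and a fold enrichment of 10.28, and no H3K27me3 region met them. Within the flanks it was the only site where both factors and H3K4me1 overlapped.

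On the Hoxa2 side, chr6:51956053-51956688 had 28 tags and a fold enrichment of 6.43. It lay in both H3K4me1 (chr6:51955719-51957006, with a fold enrichment of 8.6) and the 3.539 kb H3K27me3 region of that flank, and had no C/EBPα peak. Of all Hoxa9 peaks, 1.49% met an H3K27me3 region. The third, chr6:51948711-51949159, had 18 tags and a fold enrichment of 4.72. It overlapped the C/EBPα peak chr6:51948759-51949376, which had 32 tags and a fold enrichment of 11.49, with summits 139 bp apart. Neither mark was called there.

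Of the 9 C/EBPα peaks of the flanks, 4 lay on the Hoxa2 side and 5 on the Evx1 side, and 7 met an H3K4me1 region, against 73.6% of all C/EBPα peaks, a share close to that of the flanks. Their tags ran from 16 to 186, and apart from the peak of 186 none exceeded 36. The farthest from the window were chr6:51832203-51832824 at 277 kb, which lay in the widest H3K4me1 region of that side (chr6:51830543-51832869, 2.327 kb), and chr6:52494311-52494722 at 224 kb. The 16 H3K4me1 regions of the Evx1-side flank included chr6:52426797-52429297, with 178 tags and a fold enrichment of 11.19, the highest of both flanks and above the 7.26 that was highest in the window.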

How the data were processed

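Chromatin immunoprecipitation with sequencing was deposited as 1 peak list for each of 4 libraries, and the input library was not analysed here. The submitters' processing notes name mm9 as the build, with MACS 1.4, BWA 0.6.2 and CASAVA 1.8.2 as tools, and the caller's settings and control are not stated there. Each deposited list holds, per the file headers, whole tag counts per region (not normalized), a score of 10 times −log10 of p, the fold enrichment as a linear ratio, a false discovery rate in percent (not used), and the width and summit offset in bp. The smallest score in the deposited lists was 50.01. The sums of tags, 285488 for Hoxa9, 1408867 for C/EBPα, 6242014 for H3K4me1 and 7470847 for H3K27me3, depend on what was called. They are not depths, which are unknown here.

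Regions were matched where they shared at least 1 bp, and an offset of 1 was taken as a region's first base. Covered lengths, joined blocks and tiles were computed with Python 3.11.15, numpy 2.4.6 and pandas 2.3.3, after the interval code was checked on simulated intervals. With 1 library per precipitation no test was made. The regions to name were every H3K27me3 and factor region of the window, the H3K4me1 regions that were widest, highest scoring or nearest an edge of the widest H3K27me3 region, and in the flanks the widest of each mark and the highest scoring and nearest factor peaks. Other regions named were chosen after their values were seen. The members and lists were chosen with earlier results of these data known, and the tiles, the joining over 1 kb and the widened window were added after seeing the data. Alternatives were stricter scores and fold enrichments, other overlaps, shorter flanks and joined gaps.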

Additional observations from a re-analysis of the deposited data

How the results depend on the processing

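Of 68 alternatives to 11 results, 43 stayed within 1.5 times of the value and 25 moved by more. H3K27me3 coverage of the window, 149.545 kb, was 129.006 to 149.545 kb at stricter scores or fold enrichments. It was 159.545 kb with the window widened by 5 kb on either side, which is a longer stretch. The count of Hoxa9 peaks in the window was 0 in all of its alternatives. The C/EBPα count there was 0 except with the window widened by 5 kb, an alternative chosen after seeing the data, which gave 1. For both factors the other alternatives only remove peaks and could not change a count of 0. These fixed zeros are among the 43. With only fold enrichments from 10 upwards, H3K27me3 in the flanks was 21.703 kb, against 62.932 kb. There the window held 0 H3K4me1 regions, covering 0 kb inside the widest H3K27me3 region and 0 kb outside it, and the flanks held 2 H3K4me1 regions, 0 Hoxa9 and 2 C/EBPα peaks. With fold enrichments from 5 upwards, the window held 6 H3K4me1 regions of 16, with 7.332 kb of 11.131 kb inside the widest H3K27me3 region and 0 of 3.29 kb outside it, and the flanks held 11 of 24 and 5 of 9 C/EBPα peaks. Among the 50% of regions that scored highest in each list there were 8 H3K4me1 regions in the window with 6.746 kb inside the widest H3K27me3 region, and 9 H3K4me1 regions, 1 Hoxa9 and 2 C/EBPα peaks in the flanks. At a score of 100 or more the flanks held 1 Hoxa9 and 4 C/EBPα peaks. Flanks of 150 kb held 11 H3K4me1 regions, 0 Hoxa9 and 3 C/EBPα peaks. The width of the widest H3K27me3 region, 80.386 kb, became 167.957 kb with gaps of up to 5 kb joined and 250.718 kb with gaps of up to 10 kb. No paired analysis was possible because each precipitation has 1 library. Stricter thresholds, shorter flanks and joined gaps change these counts by construction. Each list is from 1 library of unknown depth, so weak regions near the threshold may be missing.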
